A study of Mus musculus with 6 samples.

Results

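The genes described here are the Hedgehog pathway genes Shh, Ptch1, Gli1, Gli2, Gli3, Hhip, Smo, Sufu and Boc, 9 of the 32285 genes in the count tables, taken by their symbols. All 9 were detected in skin cells after depilation, from 568 UMIs of Shh to 16772 UMIs of Smo. A UMI (unique molecular identifier) marks 1 captured mRNA molecule. The cells came from the dorsal skin of wildtype male FVB mice aged 55 to 57 days, which were shaved and waxed so that hair growth restarted. Skin was taken 0, 4 and 16 h and then 2, 4 and 6 d afterwards, and the 0 h library serves as the starting state. Each time point is 1 library of the 10x Genomics 3′ system that holds the mixed cells of 2 mice, so the mice cannot be told apart and no test between a pair of time points was possible.

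Hedgehog is a secreted signal through which cells instruct their neighbours. The receptor Patched1 (Ptch1) holds the membrane protein Smoothened (Smo) inactive until it binds a Hedgehog ligand, of which Sonic hedgehog (Shh) is the one used by hair follicles (HFs). Smo then releases the GLI transcription factors from their inhibitor Sufu, and the activated GLI proteins switch on Gli1, Ptch1 and the ligand trap Hhip, so that these genes report the signal while Hhip also limits it. In growing HFs, Shh from epithelial cells at the follicle base acts on epithelial neighbours and on the dermal papilla.

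Shh (ENSMUSG00000002633) lies on chr5:28456815-28467256 of GRCm38 on the minus strand, Ptch1 (ENSMUSG00000021466) on chr13:63508328-63573598 on the minus strand and Gli1 (ENSMUSG00000025407) on chr10:127329882-127341974 on the minus strand. Hhip (ENSMUSG00000064325) lies on chr8:79965851-80058006 and Gli2 (ENSMUSG00000048402) on chr1:118834132-119053619, both on the minus strand. The 250 bases before the start are printed for these last genes, since both had higher levels in outer bulge-like cells than in either basal keratinocyte type. Sequences are from RefSeq on GRCm38.p6, 5′ to 3′ on the strand of the gene, with the GC box letters GGGCGG or CCGCCC in capitals. The Hhip window is chr8:80058009-80058258 and the Gli2 window is chr1:119053620-119053869.
Hhip: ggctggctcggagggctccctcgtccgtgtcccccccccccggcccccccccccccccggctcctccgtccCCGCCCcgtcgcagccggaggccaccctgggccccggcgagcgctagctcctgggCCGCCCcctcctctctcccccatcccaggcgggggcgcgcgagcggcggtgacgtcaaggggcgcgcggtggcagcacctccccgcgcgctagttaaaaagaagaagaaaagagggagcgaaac
Gli2: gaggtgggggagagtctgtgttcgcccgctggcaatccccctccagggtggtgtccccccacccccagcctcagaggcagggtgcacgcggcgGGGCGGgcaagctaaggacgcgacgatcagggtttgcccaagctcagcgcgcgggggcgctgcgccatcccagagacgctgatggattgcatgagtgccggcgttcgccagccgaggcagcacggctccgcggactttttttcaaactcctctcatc
The RefSeq promoter table held 6 of the 9 members (Ptch1, Gli2, Gli3, Hhip, Smo and Sufu) with 250 bases before and 50 after the start. GC box letters were found on either strand in 5 of these 6, and in 35.7% of all 32851 promoters of that length. The GLI motif searched was GACCACCCA with its reverse complement TGGGTGGTC, which does not overlap the GC box letters. It was in none of the 6 and in 0.253% of all promoters.

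The 6 libraries held 61031 barcodes, of which 50502 were analysed after filters and removal of likely doublets. Median UMIs per analysed cell ran from 6036.5 at 4 d to 10531 at 16 h, and any pair of libraries shared 7 to 33 barcodes. Cells were grouped without the members or other Hedgehog genes and named from marker lists, and each name ends in "-like" for that reason. The OB-like (outer bulge, the home of HF stem cells) group of 4122 cells joined HF clusters 1 and 5. Cluster 5 raised 8 of 8 OB markers, of which 3 were among its 10 leading genes. Cluster 1, the larger one, raised 4 of 8 and had no OB marker among its 10 leading genes, nor one of another list. The name therefore rests on fewer markers there. Cluster 1 held 74.7, 89.9 and 70.6% of OB-like cells at 2 d, 4 d and 6 d. Levels of Ptch1, Gli1, Gli2 and Boc are given for each cluster apart, while comparisons between cell groups use the joined group. The other epithelial groups were LB-like (lower bulge), companion-like, IRS-like (inner root sheath), uHF.B-like and uHF.SB-like (upper HF, basal and suprabasal), IFE.B-like and IFE.SB-like (interfollicular epidermis) and SG-like (sebaceous gland) cells. T cell-like, Langerhans-like, melanocyte-like and dermal-like cells made up the rest, beside 4 clusters that kept a number.

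Of these numbered clusters, cluster 7 mattered most. It held 8, 934 and 153 cells in the 3 later libraries and none before. All 6 of 6 hair matrix markers were raised in it, while its leading genes by fold (Krt35, Dcn, Basp1, Tagln) held no matrix marker and 1 mural marker, so it was not given the matrix name. Companion-like cells (1052) and IRS-like cells (270) were likewise found at 2 d or later. Cluster 9 (602 cells, led by Tgfb2, Aspn, Pthlh and Wif1) had cells in every library. Its best list was OB, with 4 of 8 markers raised as in cluster 1. Its 10 leading genes held no OB marker and 1 dermal papilla marker, so it kept a number. Cluster 10 (459 cells, led by Cpa4, Serpinb2, Ptgs2 and Itga2) held 0, 243, 146, 2, 2 and 66 cells in order of time. Its cells, like the 214 of cluster 11, are not in the OB-like sums, which held 246 cells at 4 h.

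The dermal-like group held 206 cells, with 19, 17, 14, 8, 125 and 23 cells in order of time. Its dermal markers summed to 481, 1661, 817, 1195, 10878 and 2519 CPM, and its dermal papilla markers to 1588, 885, 925, 512, 3804 and 5552 CPM. CPM is the UMIs of a gene divided by all UMIs of the same cells, scaled to a total of 1000000. All 7 dermal and all 7 dermal papilla markers were detected at 4 d. At 6 d, Dcn and Lum, both defining for fibroblasts, were at 0 while all 7 dermal papilla markers were present. The earlier libraries lacked 1 or more dermal markers, except 4 h, where all 7 were detected. Markers of IFE.B cells summed to 1066, 6258, 1527, 1650, 1003 and 2780 CPM in the same cells, above the dermal markers in 5 of 6 libraries and below them at 4 d. The part of these shifts in the dermal-like values was not tested.

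Shh, the ligand, was rare and concentrated. It had 1, 1, 4, 60, 395 and 107 UMIs in the 6 libraries in order of time. These 568 UMIs came from 198 cells, 0.392% of all cells, of which 88 had 1 UMI, 38 had 5 or more and the highest had 20. Cluster 7 gave 400 UMIs in 120 cells (70.4% of all Shh UMIs), IRS-like cells 98 in 37 cells (17.3%) and OB-like cells 54 in 27 cells (9.51%). No other group had more than 3 UMIs. T cell-like cells, which should lack Shh, had 0 of 2719 cells with a UMI at a median of 2215 UMIs per cell, which allows up to 0.11% of cells with a UMI at this depth (3 cells of the total). Thinned, 0 of 1716 of these cells had one. Cluster 7 had a share of 10.96% at a median of 9506 UMIs, and 4.96% after every cell was thinned to 2000 UMIs.

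**Figure D1:**
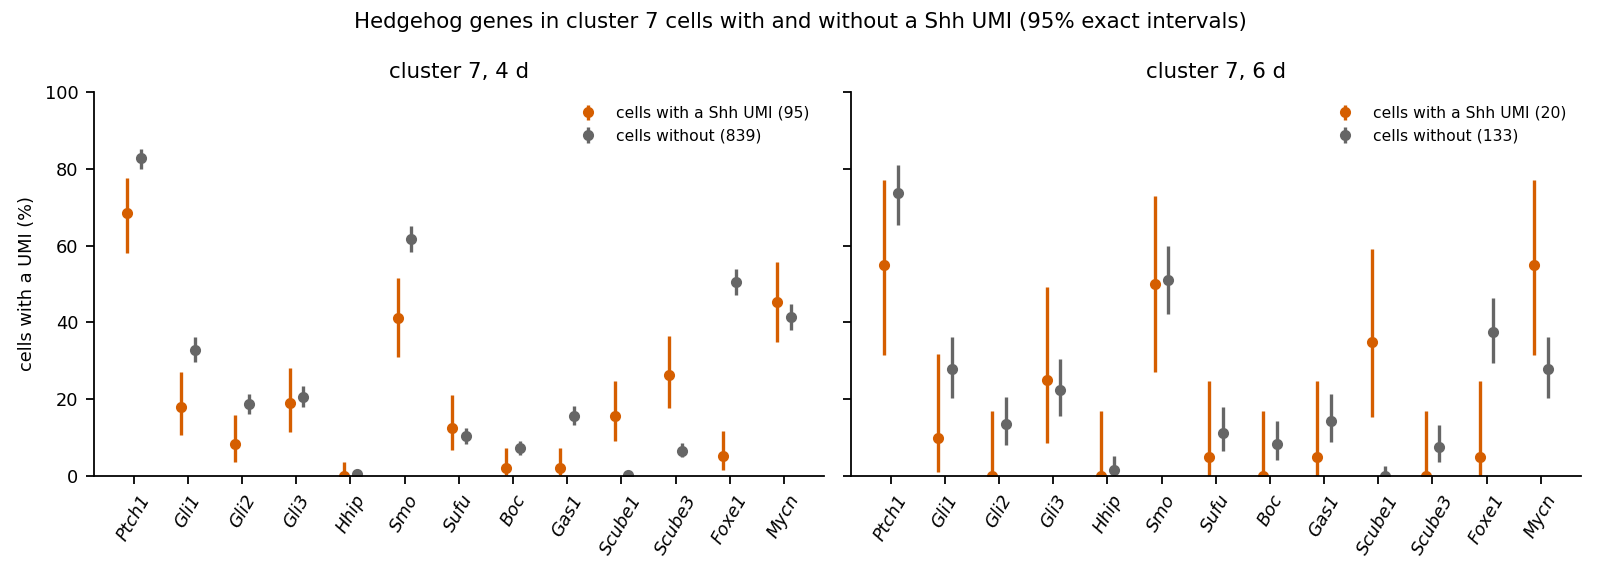
Share of cluster 7 cells with a UMI of each gene, in percent, for cells with (orange) and without (grey) a Shh UMI at 4 d and 6 d, with 95% exact binomial intervals as lines. The shares are not thinned. Among cells with Shh, Gli1 sits at 17.9% at 4 d and 10.0% at 6 d, below the 32.9% and 27.8% of the cells without.

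The 3 groups with Shh differed in timing. In OB-like cells, Shh stood at 0.551, 0.741, 1.40, 16.0, 0.433 and 0 CPM in order of time. The 2 d value rests on 43 UMIs in 17 of 320 cells (95% Poisson interval 11.6 to 21.6 CPM), lies above the intervals of the other 5 libraries and is 1 library, so it has no replicate check. All Shh UMIs of OB-like cells came from HF cluster 1. Cluster 7 had 139 CPM (73.8 to 237) from 13 UMIs in 8 cells at 2 d, then 31.9 CPM (28.4 to 35.7, 4 d) and 60.2 CPM (48.1 to 74.3, 6 d). IRS-like cells had 39.0 CPM (30.8 to 48.7, 4 d) and 50.9 CPM (31.5 to 77.8, 6 d). The CPM intervals of these times thus overlapped in IRS-like cells and did not in cluster 7, where 1 cell of 6 d held 19 of the 86 UMIs. The share of cluster 7 cells with Shh was 10.2% (8.31 to 12.3, 4 d) and 13.1% (8.17 to 19.5, 6 d), with overlapping intervals. All intervals cover counting error only.

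Cells with a Shh UMI in cluster 7 had other Hedgehog genes in different shares from the cells without. At 4 d (95 cells with Shh at a median of 10786 UMIs, 839 without at 9420), Gli1 was found in 17.9% of cells with Shh and 32.9% of those without. Ptch1 was found in 68.4% against 82.7% and Smo in 41.1% against 61.7%. Thinned to 2000 UMIs per cell, these shares were 4.21 against 9.45% for Gli1, 25.3 against 44.0% for Ptch1 and 7.37 against 20.5% for Smo. All 3 were lower in the cells with Shh either way. Scube1 and Scube3, whose proteins help to release the ligand, went the other way, with 15.8% against 0.238% and 26.3% against 6.67%. The HF transcription factor gene Foxe1 was found in 5.26% against 50.5%. Thinned, the Foxe1 shares were 0 against 21.8%. At 6 d (20 cells against 133), Gli1 was found in 10.0% against 27.8%, Ptch1 in 55% against 73.7% and Foxe1 in 5% against 37.6%. The directions of these 3 genes were those of 4 d, while Scube3 was found in none of the 20 cells with Shh. Cells of 1 library are not replicates, so no test was run.

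In OB-like cells at 2 d, the 17 cells with Shh had a median of 12792 UMIs and the 303 without had 6812. Boc, a co-receptor that helps cells bind the ligand, was found in 5.88% against 23.8%, and the co-receptor Gas1 in 5.88% against 66.7%. In CPM, which takes out depth, Ptch1 was at 130.0 in the cells with Shh (89.5 to 183) and 237 in those without (218 to 257). Gli1 was at 51.2 (27.3 to 87.6) and 38.2 CPM (30.9 to 46.9), so its intervals overlapped. All 17 cells with Shh were of HF cluster 1, while the cells without included the 81 cells of cluster 5. At 2 d, Boc was at 26.2 CPM in cluster 1 and 78.9 in cluster 5, and Ptch1 at 254 and 68.7. The part of cluster make-up in the differences between cells with and without Shh was not tested.

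Ptch1, the receptor and a target of the pathway, was highest at 4 d in OB-like cells. It stood at 26.5, 17.8, 39.8, 227, 274 and 96.8 CPM in order of time, with 95% intervals of 265 to 284 at 4 d and 89.4 to 105 at 6 d. The libraries of 2 d, 4 d and 6 d lay above the 3 earlier ones. Thinned to 2000 UMIs, 6.35, 1.67, 6.18, 25.6, 34.7 and 12.7% of OB-like cells had a Ptch1 UMI, against 12.4, 6.91, 19.0, 56.2, 61.4 and 28.7% unthinned. Both shares put 4 d first and 4 h last.

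Dermal-like cells had the highest Ptch1 level of any group and time, with 20.9, 0 and 64.5 CPM at 0, 4 and 16 h (1, 0 and 3 UMIs), then 839 (755 to 929) by 4 d and 889 (725 to 1079) by 6 d. The 8 cells of 2 d gave 256 CPM from 9 UMIs. The libraries of 4 d and 6 d did not overlap the others, and the early sums hold too few UMIs to place them. Cluster 7 had 149, 277 and 237 CPM at 2 d, 4 d and 6 d, from 8, 934 and 153 cells. Companion-like cells had 102, 102 and 34.8 CPM at the same times.

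Within the 4 d library, Ptch1 was highest in dermal-like cells, followed by cluster 7 (277 CPM, 267 to 288) and OB-like cells (274 CPM, 265 to 284), whose intervals overlapped. Companion-like (92.5 to 112), IRS-like (77.4 to 104) and cluster 9 cells (62.6 to 109) came next and overlapped each other. Within the 6 d library the order was dermal-like cells, cluster 7 (213 to 264), OB-like (89.4 to 105), IRS-like (43.1 to 95.2), cluster 9 (37.7 to 65.8) and companion-like cells (27.4 to 43.5), and from OB-like cells on each interval overlapped the next. T cell-like cells ranged from 23.8 to 55.8 CPM, so they are no background for this gene. IFE.B-like, IFE.SB-like, uHF.B-like and uHF.SB-like cells ranged from 1.36 to 17.3 CPM in all.

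**Figure D2:**
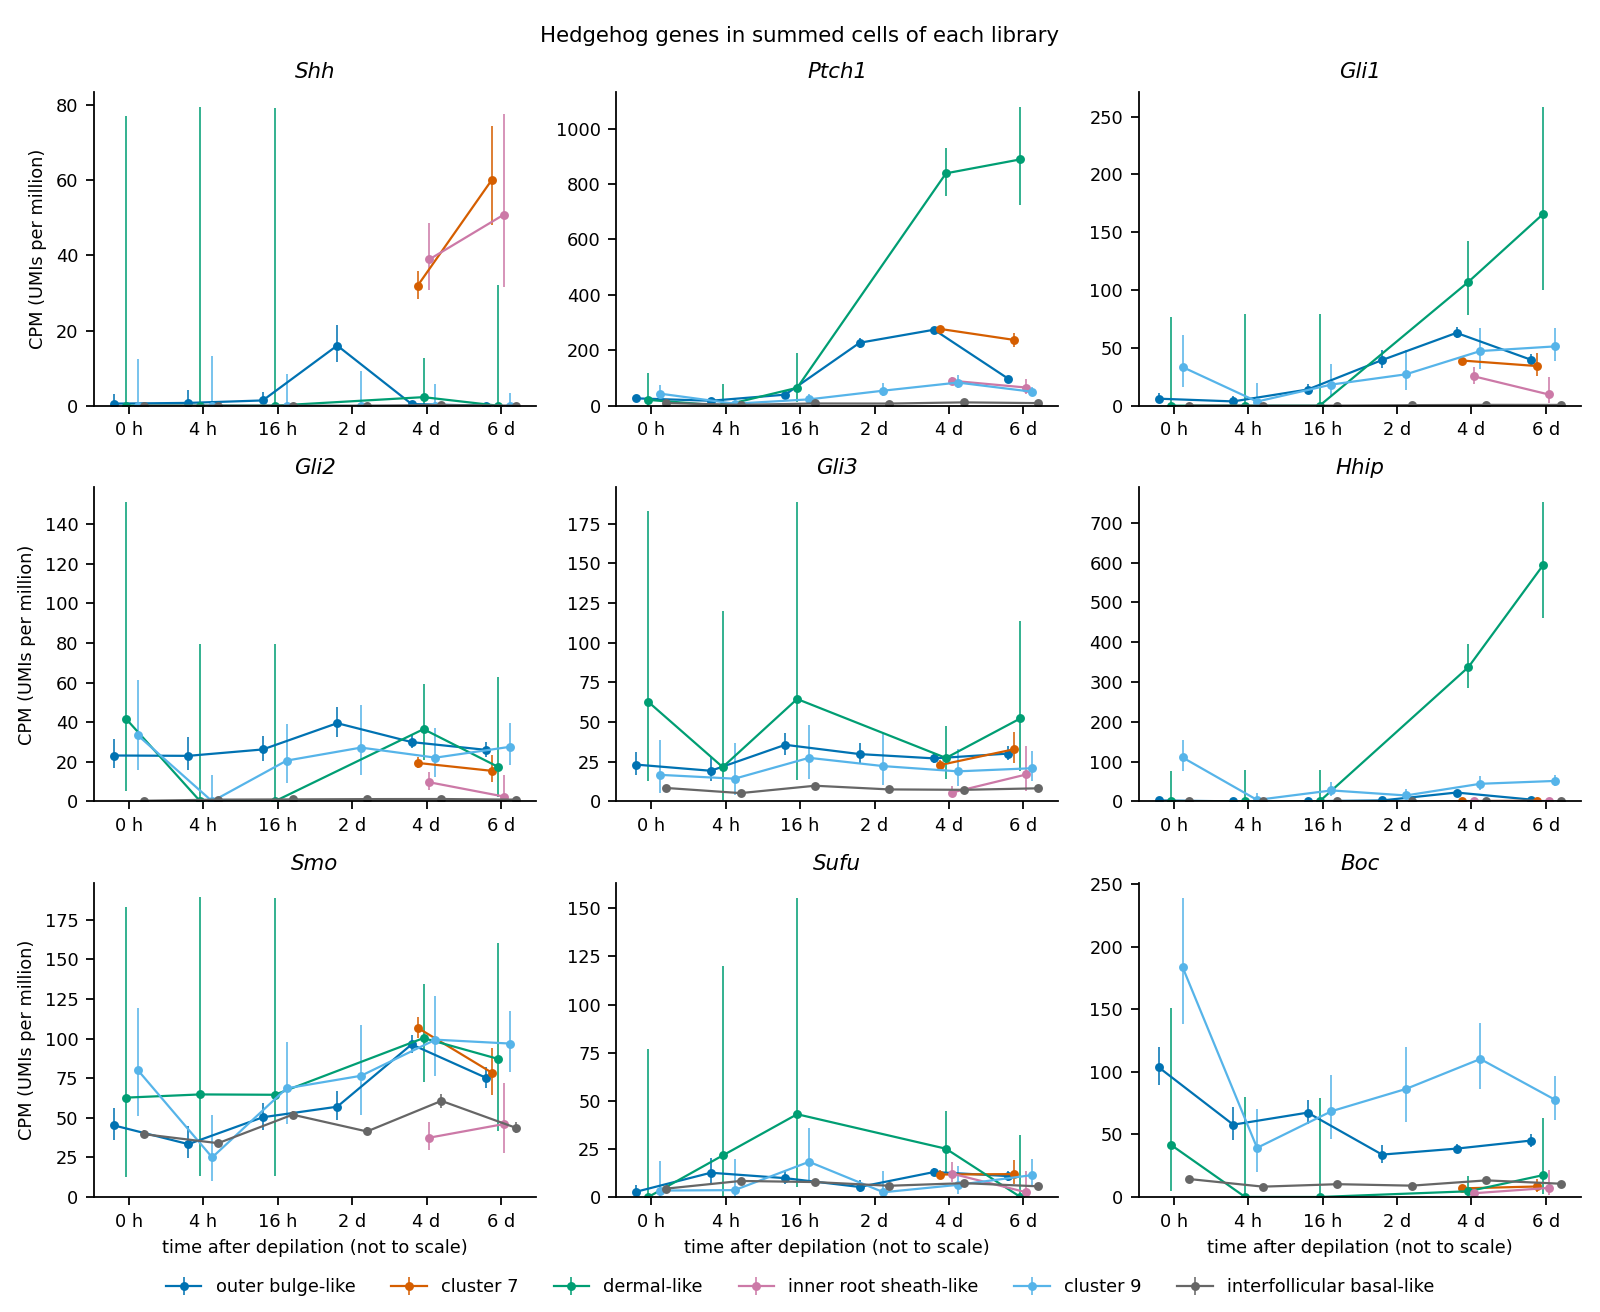
Level of each member in CPM, on linear axes that start at 0, over the 6 times in 6 cell groups, from libraries with at least 10 cells of the group, with 95% exact Poisson intervals as lines and times spaced evenly. The dermal-like line has no point at 2 d. Ptch1 reaches 889 CPM in dermal-like cells at 6 d and 274 in OB-like cells at 4 d, and Shh reaches 60.2 CPM in cluster 7.

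Boc had another order. In OB-like cells it stood at 104, 57.8, 67.4, 33.9, 38.7 and 45.1 CPM, highest at 0 h (89.3 to 120) and lowest at 2 d (27.3 to 41.6). In cluster 9 it stood at 184, 39.3, 68.6, 86.4, 110.3 and 77.8 CPM, and in LB-like cells between 23.9 and 54.1 CPM. Cluster 7 had 6.89 and 8.40 CPM at 4 d and 6 d, and dermal-like cells 4.56 and 17.4 from 2 UMIs each. Cluster 9, OB-like and LB-like cells were the first 3 by the median, and their ranges overlapped.

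Hhip, which binds and traps the ligand, came from few cell types. OB-like cells gave 296 of its 702 UMIs (42.2%), dermal-like cells 216 (30.8%) and cluster 9 134 (19.1%), although dermal-like cells were 0.408% of all cells and cluster 9 1.19%. Dermal-like cells had no Hhip UMI in any of the first 4 libraries and later 337 CPM (285 to 396, 4 d) and 593 CPM (460 to 751, 6 d). In sums of that size 0 UMIs allow up to 62.7 to 85.4 CPM (3 UMIs of each total), which lies below both later values. In OB-like cells Hhip stood at 2.20, 0, 0.349, 2.23, 22.1 and 4.43 CPM, with the 4 d library apart from the others. Cluster 9 had 110.2, 3.57, 27.4, 14.8, 44.1 and 51.3 CPM, highest at 0 h. Cluster 7 and IRS-like cells, the groups with the most Shh, had at most 1.40 CPM of Hhip and none, and T cell-like cells had 0 of 2719 cells with a UMI.

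Smo and Sufu, the relay and the inhibitor of the GLI proteins, were spread over nearly all epithelial groups. Smo in OB-like cells stood at 45.2, 33.4, 50.3, 57.0, 96.3 and 75.2 CPM, and in IFE.B-like cells at 39.7, 34.0, 52.0, 41.4, 60.7 and 43.7 CPM. Both groups were lowest at 4 h and highest at 4 d. Smo was near 0 in T cell-like (0 to 3.34 CPM) and Langerhans-like (0 to 9.73 CPM) cells. Sufu was at 2.76 to 13.0 CPM in OB-like cells and 4.35 to 8.34 CPM in IFE.B-like cells, and, unlike Smo, it was found in T cell-like cells at a like level (6.68 to 17.1 CPM). The Sufu ranges of all groups overlapped that of OB-like cells.

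Of the GLI transcription factors, Gli1 is itself switched on by the signal. In OB-like cells it stood at 6.06, 3.71, 14.0, 39.5, 63.0 and 39.8 CPM, with 4 d highest (58.5 to 67.7) and the intervals of 2 d and 6 d overlapping. Thinned, 0.952, 1.25, 3.49, 4.38, 13.0 and 7.45% of cells had a Gli1 UMI, against 3.49, 1.22, 8.31, 24.1, 32.1 and 19.1% unthinned. T cell-like cells had 0.331% over all libraries unthinned, and 0.175% thinned.

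Gli1 in cluster 9 stood at 33.4, 3.57, 18.3, 27.1, 47.3 and 51.3 CPM, already at 0 h above the 6.06 CPM of OB-like cells. Dermal-like cells had no Gli1 UMI at 0, 4 or 16 h, 2 UMIs at 2 d, and then 107 CPM (78.7 to 142, 4 d) and 166 CPM (99.7 to 259, 6 d). LB-like cells had none at 0, 4 and 16 h, and 7.46, 36.4 and 9.57 CPM later. Cluster 7 (39.0 and 34.3 CPM), companion-like (31.4, 37.3 and 8.13 CPM) and IRS-like cells (25.3 and 9.69 CPM) overlapped OB-like cells in range. Cluster 10 had 1.09 and 0 CPM at 4 h and 16 h, and 57.6 CPM (34.1 to 91.1) from 66 cells at 6 d. That interval overlapped the one of OB-like cells at 6 d (35.1 to 44.9). IFE.B-like cells stayed at or below 0.704 CPM and melanocyte-like cells had none.

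Gli2, the main activator of the pathway, stood at 23.1, 23.0, 26.2, 39.5, 29.9 and 26.0 CPM in OB-like cells. The interval of the 2 d value (32.3 to 47.7) lay above those of 0 h (16.7 to 31.3) and 6 d (22.2 to 30.2) and reached those of the other 3 libraries. Gli3, which acts mainly as a repressor, stood at 23.1, 19.3, 35.6, 29.8, 27.1 and 30.1 CPM in OB-like cells. Its levels were as high in melanocyte-like (18.5 to 51.0 CPM), dermal-like (21.6 to 64.5) and uHF.B-like cells (7.94 to 35.3), and the ranges of these 4 groups overlapped. Gli2 was at most 5.45 CPM in uHF.B-like, 1.17 in IFE.B-like and 0.598 in melanocyte-like cells, so its range in OB-like cells (23.0 to 39.5 CPM) overlapped none of these.

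**Figure D3:**
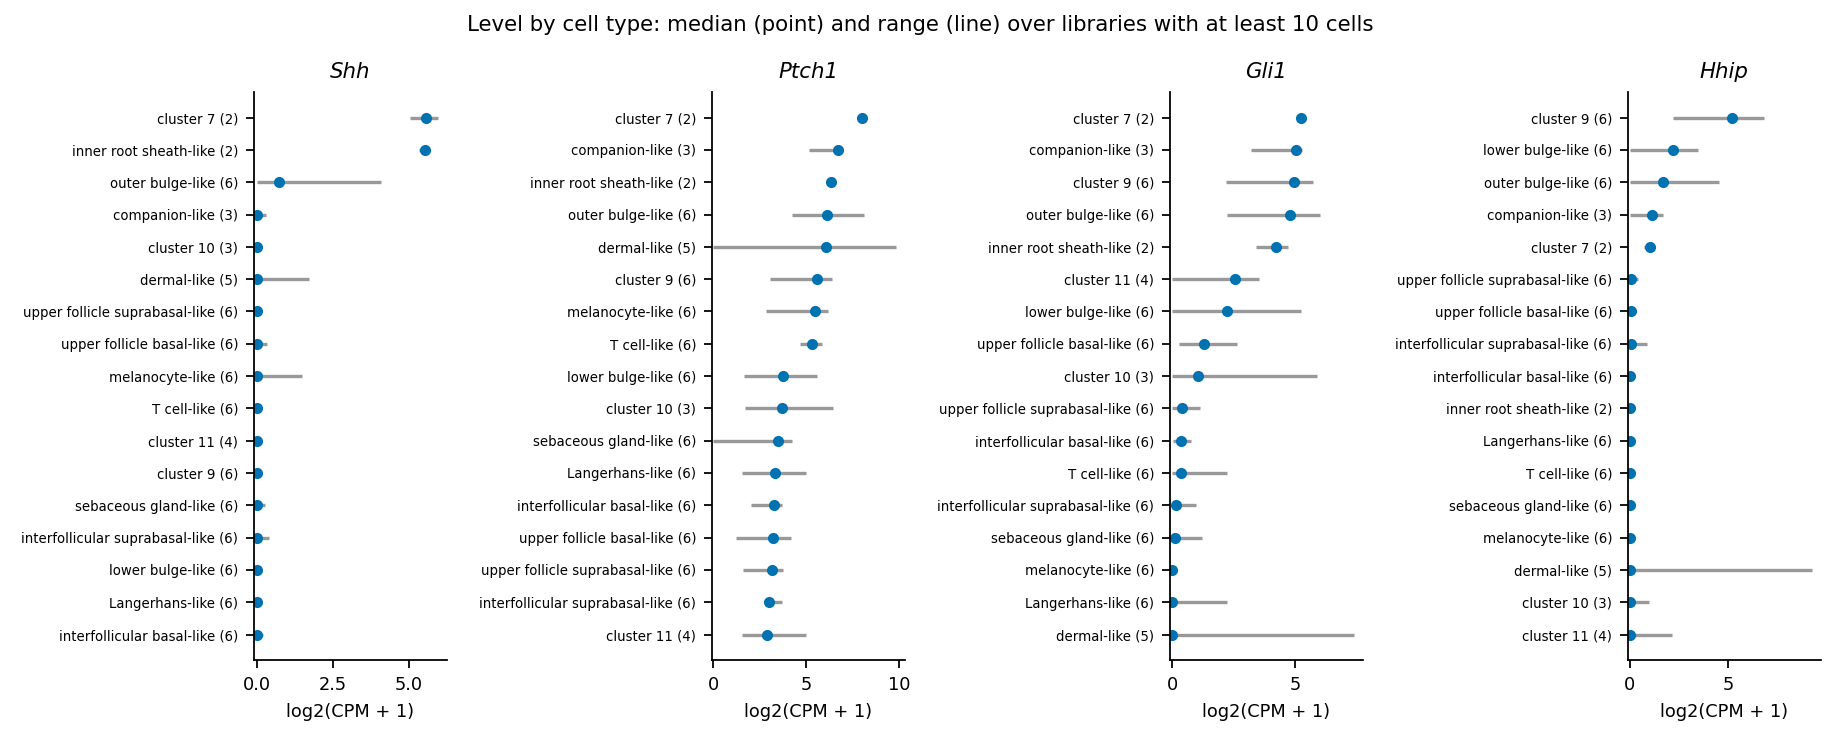
Level of 4 members in log2(CPM + 1) by cell group, as the median (point) and range (line) over libraries with at least 10 cells, with the number of libraries in brackets and groups sorted by the median. Groups with cells in later libraries only are shown over those alone, so the order mixes times. Shh is led by cluster 7 and IRS-like cells, whereas the Hhip range of dermal-like cells runs from 0 to 593 CPM with a median of 0.

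The question whether these genes changed with time in OB-like cells was tested over the 6 libraries by fitting a curve over hours in edgeR (quasi-likelihood test), Benjamini-Hochberg adjusted over all genes. Of the 8 members that passed the filter on low counts, Ptch1 (edgeR adjusted p = 0.0323) and Gli1 (edgeR adjusted p = 0.0431) passed 0.05, beside 2.0% of the 10808 genes tested. Shh did not pass the filter and was not tested. Hhip (edgeR adjusted p = 0.0524), Boc (0.367) and Smo (0.825) did not pass, and Gli2, Gli3 and Sufu had edgeR adjusted p of 1.0. Among the 33 other pathway genes, 25 were tested and 2 passed, among them Foxe1. It stood at 0.551 CPM or less up to 2 d, 30.1 at 4 d (348 UMIs) and 9.48 at 6 d (62 UMIs). Foxe1 thus entered the test through the libraries where it is high, so it is given as values only. With 6 libraries the fit left 2 residual degrees of freedom, and both member calls were lost with a straight line over hours, at a halved or doubled clustering resolution and without the 2 d library. In 9 other cell types 38 member tests gave 0 calls with edgeR, 0 of them with an unadjusted p under 0.05, where 5.57% of all genes were called in melanocyte-like cells, 0.0513% in T cell-like cells, 0.0168% in cluster 9, 0.0161% in Langerhans-like cells and 0.0% in the other 5. DESeq2 gave 0 calls there as well.

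The make-up of OB-like cells moved with these levels. HF cluster 1, led by Gnmt, Lgals1, Edn2 and Sfrp1, held 15.9, 30.5, 41.0, 74.7, 89.9 and 70.6% of OB-like cells in order of time, and cluster 5, led by Krt24, S100a4 and Cd34, the remainder. Ptch1 stood at 51.6, 47.3, 66.9, 254, 287 and 114 CPM in cluster 1 and at 20.9, 2.26, 14.3, 68.7, 62.0 and 40.8 in cluster 5. Gli1 stood at 12.1, 8.60, 25.2, 42.8, 64.3 and 44.3 CPM in cluster 1 and at 4.71, 1.13, 3.40, 20.4, 40.8 and 25.5 in cluster 5. Within each cluster the 3 later libraries were above the 3 earlier ones for both genes, and cluster 1 was above cluster 5 in 6 of 6 libraries. Neither gene was called in either cluster alone (edgeR adjusted p for Ptch1 0.165 and 1.0, for Gli1 0.300 and 0.479), fits that were chosen after the data were seen. Boc was lower in cluster 1 (26.2 to 54.6 CPM) than in cluster 5 (59.9 to 124 CPM), and the ranges did not overlap.

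**Figure D4:**
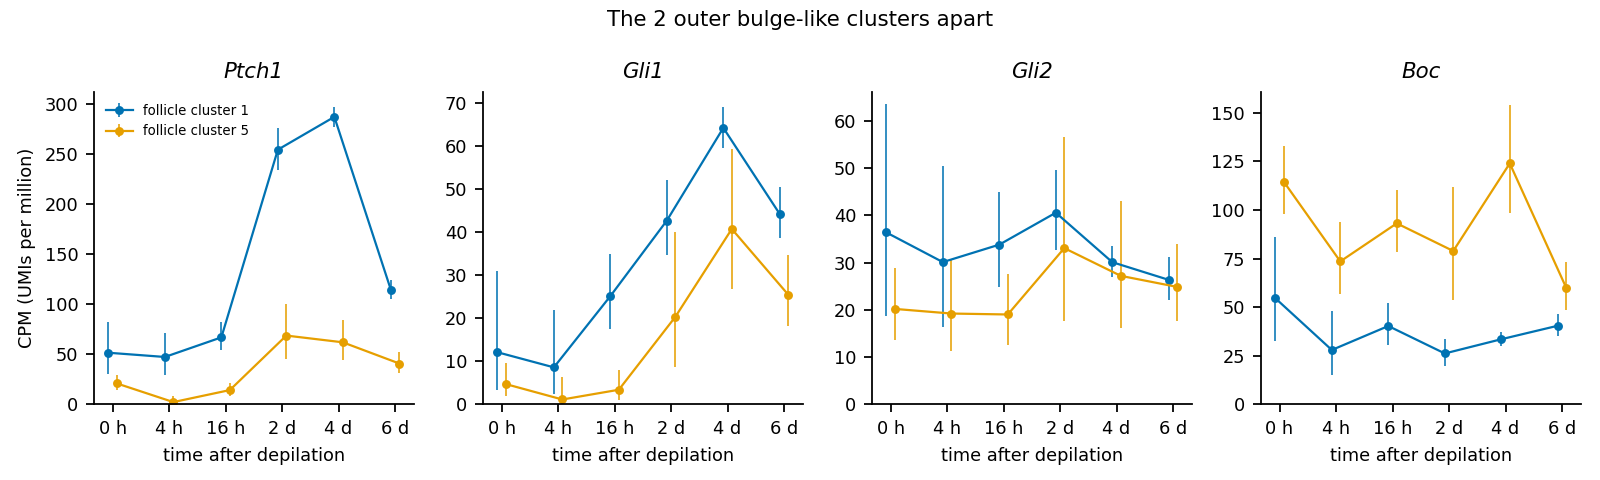
Ptch1, Gli1, Gli2 and Boc in CPM in HF cluster 1 (blue) and cluster 5 (orange) over the 6 times, with 95% exact Poisson intervals as lines. Ptch1 peaks at 287 CPM in cluster 1 at 4 d and at 68.7 in cluster 5 at 2 d, and Boc is at 59.9 CPM or more in cluster 5 and at 54.6 or less in cluster 1.

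Cells of dermal-like and OB-like groups of the same library were compared over the 5 libraries with at least 10 cells of each, which leaves out 2 d. Libraries of different times served as replicates, and edgeR pools variance over genes, so the error is not the spread between mice. Of 8 members tested, Ptch1 was higher in dermal-like cells and Boc was lower, beside 23.7% of the 10125 genes tested (9.79% higher and 13.9% lower). Hhip passed the filter on low counts through the dermal-like sums alone, so its call was fixed by the group where it is high and is not counted. It stood at 186 ± 270 CPM against 5.83 ± 9.29 (SD, n = 5), higher at 4 d and 6 d only and with no UMI in the other dermal-like sums. Ptch1 was higher by 1.15 ± 0.39 on the log2 scale (SE, edgeR adjusted p = 0.0161), with 363 ± 459 CPM against 91.0 ± 107, in 3 of 5 libraries. Boc was lower, with a difference of -2.86 on that scale (SE 0.57, edgeR adjusted p = 6.941e-06) and 12.8 ± 17.7 CPM against 62.5 ± 25.5, in 5 of 5 libraries. The dermal-like sums held 6 Boc UMIs in all. At 4 h and 16 h, 0 UMIs would allow up to 64.7 and 64.5 CPM (3 UMIs of each total), near the OB-like mean. The count of libraries therefore says little about the early times.

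Within the 4 d and 6 d libraries alone, the difference was 2.07 for Ptch1 and 0.99 for Gli1. This fit was added after both genes were seen to be high there in dermal-like cells. For that reason, and with 1 residual degree of freedom left, it is given without p-values. Over 5 libraries the Ptch1 call was lost with DESeq2 and without the library of 4 d or of 6 d. Of the other pathway genes, 8 of 23 tested were called, 4 higher and 4 lower, with a median difference of -0.03 against -0.22 over all genes. Of the ligand release genes, Scube3 was at 381 CPM at 4 d and 218 at 6 d in dermal-like cells and at most 4.10 in any library of OB-like cells.

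**Figure D5:**
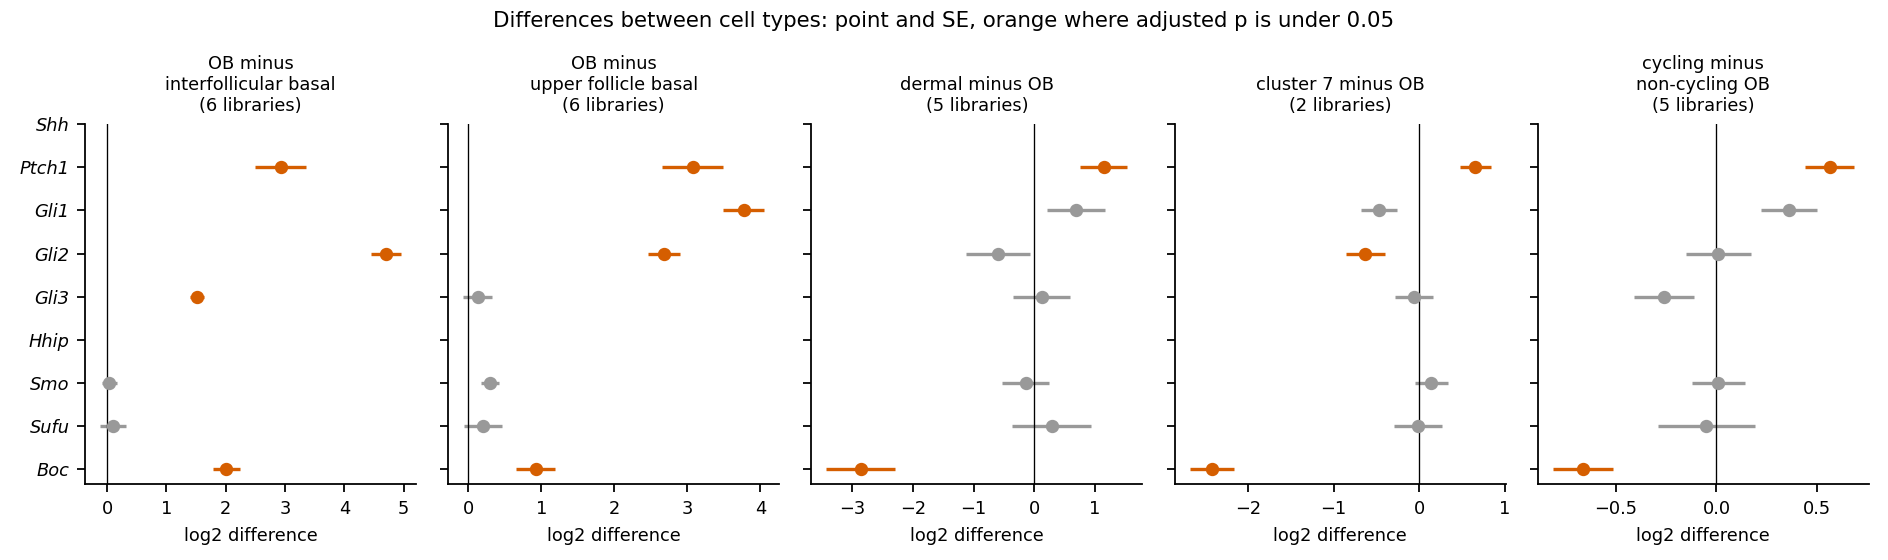
Log2 difference of each member between 2 cell groups (point) with its SE (line) from edgeR, over the number of libraries in brackets, orange where the adjusted p is under 0.05. Members that did not reach the filter on low counts in both groups are left out. Gli2 lies at 4.70 against interfollicular basal cells, Boc at -2.86 in dermal-like against OB-like cells, and Smo and Sufu are grey in all 5 panels.

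OB-like cells held more of most members than the basal cells of the interfollicular epidermis. Over 6 libraries, 4 of the 6 members that reached the filter in both groups were higher in OB-like than in IFE.B-like cells and none lower, beside 37.9% of 13311 genes called (18.3% higher and 19.6% lower). The differences were 4.70 ± 0.25 on the log2 scale for Gli2 (edgeR adjusted p = 3.312e-06), 2.93 ± 0.43 for Ptch1 (edgeR adjusted p = 0.000893), 2.01 ± 0.23 for Boc (edgeR adjusted p = 0.000227) and 1.52 ± 0.12 for Gli3 (edgeR adjusted p = 2.307e-05). All 4 were higher in 6 of 6 libraries, and all 4 were called in the libraries of 0, 4 and 16 h alone, an added fit. Gli1, Hhip and Shh passed the filter through OB-like cells alone, so their differences are given as values only. The 16725 IFE.B-like cells held 38 UMIs of Gli1, 3 of Hhip and 2 of Shh, against 1150, 296 and 54 UMIs in the 4122 OB-like cells. Gli1 stood at 27.7 ± 23.5 CPM in OB-like against 0.343 ± 0.307 in IFE.B-like cells (SD, n = 6). Smo (0.04 ± 0.13, edgeR adjusted p = 0.847) and Sufu (0.10 ± 0.22, edgeR adjusted p = 0.759) were not called. Of the other pathway genes, 17 of 28 were called, 13 higher and 4 lower, with a median difference of 0.49 against -0.04 over all genes.

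Against the basal cells of the upper HF, 4 of the 7 members that reached the filter in both groups were higher in OB-like cells, beside 27.8% of 12656 genes called (14.2% higher and 13.7% lower). Gli1 was higher by 3.77 ± 0.28 (edgeR adjusted p = 1.29e-05), Ptch1 by 3.07 ± 0.42 (edgeR adjusted p = 0.000957) and Gli2 by 2.68 ± 0.22 (edgeR adjusted p = 2.342e-05), each in 6 of 6 libraries. Hhip passed the filter through OB-like cells alone, with 3 UMIs in 6162 uHF.B-like cells. Boc was higher by 0.92 ± 0.27 in 6 of 6 libraries (edgeR adjusted p = 0.0329), a call lost without the filter on low counts and when the library of 0 h, of 16 h or of 6 d was left out. Gli3, called against IFE.B-like cells, was not called here (0.13 ± 0.20, edgeR adjusted p = 0.668), nor were Smo and Sufu. Of the other pathway genes, 14 of 27 were called, 12 higher and 2 lower, with a median of 0.41 against -0.05 over all genes.

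Gas1 and Mycn were higher in OB-like cells in both comparisons. In OB-like cells Gas1 was at 276 ± 51.8 CPM against 71.0 ± 23.4 in IFE.B-like and 79.1 ± 30.1 in uHF.B-like cells, and Mycn, a proliferation gene, at 14.3 ± 13.4 against 0.518 ± 0.347 and 1.41 ± 1.03 (SD, n = 6). Each was higher in 6 of 6 libraries of both comparisons. Ccnd2, a cyclin gene, was lower in OB-like cells in both, at 121 ± 38.8 CPM against 243 ± 50.6 and 350.0 ± 136.

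Cluster 7 and OB-like cells could be compared in 2 libraries, 4 d and 6 d, which leaves 1 residual degree of freedom. The p-values therefore rest on variance that edgeR pools over genes and do not measure the spread between libraries or mice. Of the 7 members that reached the filter in both groups, Ptch1 was higher in cluster 7 and Gli2 and Boc were lower, beside 31.5% of 12075 genes called (14.4% higher and 17.1% lower). Shh passed the filter through cluster 7 alone and Hhip through OB-like cells alone, so neither call is counted. Shh stood at 31.9 and 60.2 CPM in cluster 7 at 4 d and 6 d, where OB-like cells had 5 and 0 UMIs. Hhip had 8 UMIs in cluster 7 against 285 in OB-like cells. Ptch1 was higher by 0.65 ± 0.18 on the log2 scale (edgeR adjusted p = 0.00134), with 257 ± 28.2 CPM against 186 ± 125 (SD, n = 2). In CPM the groups were at 277 and 274 at 4 d, with overlapping intervals, and at 237 and 96.8 at 6 d. Boc was lower, with a difference of -2.42 on that scale (SE 0.26, edgeR adjusted p = 1.4e-19). Gli1 stood at 36.7 ± 3.35 CPM against 51.4 ± 16.4 and was not called (edgeR adjusted p = 0.0764). Ptch1 and Gli2 were not called with DESeq2, and the Gli2 difference turned to 0.45 and 0.24 at the halved and doubled resolution.

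Of the other pathway genes, 11 of 29 were called between cluster 7 and OB-like cells, 6 higher and 5 lower, with a median of -0.1 against -0.01 over all genes. Both co-receptor genes called were lower in cluster 7, Gas1 at 22.8 ± 2.39 CPM against 284 ± 28.7 and Cdon at 1.55 ± 0.21 against 13.8 ± 7.23. The target genes Foxe1 (105 ± 22.2 CPM against 19.8 ± 14.6), Ccnd2 (609 ± 85.4 against 147 ± 4.00) and Mycn (55.9 ± 9.84 against 20.9 ± 16.6) were higher. Sox9, a transcription factor gene of bulge stem cells, was lower at 51.9 ± 7.80 against 666 ± 176.

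Cycling and non-cycling OB-like cells of the same library were compared over the 5 libraries with enough of both. A cell counted as cycling with at least 2 UMIs of 10 cycling markers after thinning to 2000 UMIs, and 6.98, 10.5, 40.9, 51.3 and 25.9% of cells did so at 0 and 16 h and at 2, 4 and 6 d. Ptch1 was higher in cycling cells and Boc was lower, 2 of 9 members, beside 25.4% of 10672 genes called (13.5% higher and 12.0% lower). That share is near the share of all genes, and Shh and Hhip, not called, reached the filter in cycling cells alone. Ptch1 stood at 50.1, 61.1, 277, 296 and 129 CPM in cycling and 24.8, 36.6, 166, 245 and 81.1 in non-cycling cells, higher in 5 of 5 libraries by 0.56 ± 0.12 on the log2 scale (edgeR adjusted p = 0.000457). Boc stood at 75.2, 45.1, 16.9, 31.1 and 42.2 CPM in cycling and 106, 70.9, 54.7, 48.6 and 46.5 in non-cycling cells, lower in 5 of 5 (edgeR adjusted p = 0.000884). Gli1 differed by 0.36 ± 0.14 (edgeR adjusted p = 0.0591). Neither call held at the halved or the doubled resolution, where the Ptch1 difference was 0.11 and 0.17. The fit had no term for HF clusters 1 and 5. At 2 d these had 254 and 68.7 CPM of Ptch1 and 26.2 and 78.9 CPM of Boc. The part of cluster make-up in the cycling differences was not tested.

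Of the other pathway genes, 7 of 25 were called with the cell cycle, 4 higher and 3 lower, with a median of -0.02 against -0.02 over all genes. Foxe1, Evc and Mycn were among those higher in cycling cells, and Ccnd2, Cdon and Sox9 were lower. Non-cycling OB-like cells had the time order of the whole group in both Ptch1 and Gli1, with Gli1 at 6.49, 3.84, 13.7, 29.8, 59.4 and 34.2 CPM over the 6 libraries.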

How the data were processed

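The authors deposited, for each of 6 libraries, the filtered matrix of raw UMI counts per gene and cell barcode, made with Cell Ranger 6.1.2 on mm10 per the submitters' processing notes. Groups were taken from the sample labels, with 1 library per time point. Libraries of different times stand in for replicates and edgeR pools variance over genes, so p-values do not measure the spread between mice. Library totals ran from 72634390 UMIs (4 h) to 112370376 UMIs (16 h) over 7307 to 13878 barcodes.

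Barcodes with 500 to 7000 detected genes and at most 10% mitochondrial UMIs were kept (55177). Scrublet (scanpy 1.11.5) gave doublet scores, and the highest-scoring 0.8% per 1000 barcodes of a library (4675 in all) were removed, since the threshold Scrublet set itself marked 677 cells in the 4 d library and at most 1 in any other. Cells were integrated with reciprocal PCA and clustered in Seurat 5.3.0 (resolution 0.2 for all skin, 0.4 for follicle cells). The members, the other pathway genes, the cycling markers and genes correlated above 0.2 with the cycling markers, 487 genes in all, were kept out of clustering. Genes correlated with the Hedgehog genes alone were not removed. Groups were named from marker lists. The doublet rule and the naming of clusters by number where leading genes went against a name were settled after the clusters were seen.

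UMIs were summed per library and cell type. Levels are CPM with exact Poisson 95% intervals, and shares of cells have exact Clopper-Pearson 95% intervals, unthinned and after thinning each cell to 2000 UMIs (shallower cells left out). Intervals cover counting error only. Sums were tested with edgeR 4.0.16 (TMM, filterByExpr, robust quasi-likelihood F test) in R 4.3.3, with time as a spline over hours (natural cubic, 3 df) (at least 20 cells in every library), or cell type plus library for contrasts (at least 10 cells of both types), and Benjamini-Hochberg adjustment over all genes tested at 0.05. In contrasts, members that reached the filter in only 1 of the groups are given as values and not counted as called, a split made after the data were seen and not made for other pathway genes. A share of 0 is given with the limit that 3 counts of the total allow. These scripts were tested on simulated data. Alternatives were DESeq2 1.42.0, other time scales, filters, clustering resolutions and thinning depths, a limit of 6000 genes, TMM-scaled levels and leaving out each library. Hedgehog genes were named in every result, and other pathway genes by counts and, where they passed a test, by values. Co-detection with Shh was described for a set of pathway genes beside the members. The members and lists were chosen with earlier results of these data known. Positions come from GENCODE M21, which held 32158 of the 32285 gene identifiers. Levels were not compared between genes. Values of 1 pathway gene are not reported here, although it remains in the counts of the other pathway genes.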

Additional observations from a re-analysis of the deposited data

How the results depend on the processing

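With 1 library per time point, a level at 1 time has counting error only, dermal-like sums before 4 d hold few UMIs, and the time course left 2 residual degrees of freedom. No paired analysis was possible between time points because each has 1 library, whereas cell groups were compared within libraries with library as a term. The counts of members called include those that passed the filter on low counts through 1 of the groups compared. Fits within the OB-like clusters, within the 4 d and 6 d libraries and within the 0, 4 and 16 h libraries were added after the data were seen. Where a value moved, the cause was not tested.

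In the time course of OB-like cells the 2 members called became 3 on the log2 time scale, 3 with DESeq2, 4 without a filter on low counts, and 0 with a linear trend, at the halved and at the doubled resolution and in cluster 1 or cluster 5 alone. Leaving out 1 library gave 0 to 4, with 4 without 4 h, 0 without 2 d and 1 without 4 d. The 216 genes called became 1334 on the log2 scale, 0 with a linear trend, 587 with DESeq2, 455 without a filter, 0 at the halved and 34 at the doubled resolution, 25 in cluster 1 and 1 in cluster 5, and 14 to 1870 without 1 library. In the other cell types the 0 members called became 1 on the log2 scale, without a filter and without 0 h, and the 245 genes called became 1567 on the log2 scale, 64 with a linear trend, 536 with DESeq2, 699 without a filter and 411 to 2355 without 1 library.

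Between dermal-like and OB-like cells the 3 members called in the fit included Hhip, which passed the filter through the dermal-like sums alone. The count became 1 without 4 d, and the 2403 genes became 1562 with DESeq2 and 1325 without 4 d. The Gli1 difference reversed to -0.10 without 6 d (edgeR adjusted p = 0.9594), within a range of -0.10 to 0.86 when 1 library was left out. Of the 5047 genes called between OB-like and IFE.B-like cells, the 0, 4 and 16 h libraries alone gave 3041. Between cluster 7 and OB-like cells the 5 members called in the fit included Shh and Hhip, which each passed the filter through 1 group alone. The count became 3 with DESeq2, at the halved and at the doubled resolution. The 3803 genes became 1354 with DESeq2 and 2530 at the doubled resolution. The Gli2 difference reversed to 0.45 at the halved and 0.24 at the doubled resolution. Leaving out a library was not possible there, since 1 library then leaves no residual degree of freedom, and the halved resolution had no uHF.B-like class.

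Between cycling and non-cycling OB-like cells the 2 members called became 0 at the halved and the doubled resolution, where Gli1 reversed to -0.0038 and -0.0502. The 2714 genes became 1514 with DESeq2, 902 at the halved and 1094 at the doubled resolution, 1204 with at least 1 cycling UMI, 1374 without 4 d and 1564 without 6 d. With TMM factors the levels in OB-like cells of 4 d became 228 CPM for Ptch1, 52.4 for Gli1, 24.9 for Gli2, 22.5 for Gli3, 18.4 for Hhip, 80.1 for Smo, 10.8 for Sufu and 32.2 for Boc. Shares of these cells unthinned and thinned to 1000 UMIs were 61.4 and 20.5% for Ptch1, 32.1 and 5.85% for Gli1, 16.4 and 2.55% for Gli2, 15.7 and 2.20% for Gli3, 9.55 and 1.33% for Hhip, 44.6 and 8.98% for Smo, 8.16 and 1.16% for Sufu and 21.7 and 4.00% for Boc.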

Other observations

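The other Hedgehog ligand genes were near the floor in these cells. Dhh had 91 UMIs in 85 cells, of which 28 UMIs lay in OB-like, 15 in companion-like and 14 in uHF.B-like cells, and Ihh had 33 UMIs in 33 cells. Foxe1, a HF transcription factor gene, was at 239 CPM at 4 d and 124 at 6 d in IRS-like cells. Gas1, a co-receptor gene, ranged from 136 to 697 CPM in cluster 9, where no Scube1 or Scube3 UMI was found in any library.

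Ptch1 was detected in 8.31% of T cell-like cells unthinned and in 6.93% thinned to 2000 UMIs, where Gli1 was found in 0.331% and 0.175%.

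Over 80 sums of a cell type in a library, from 17 cell types, the genes whose log2(CPM + 1) pattern was most like that of Shh were Gm49425 (Pearson r of 0.87), Krt28 (0.85) and Dcn (0.84), among 11749 genes. Those most like Gli1 were Bgn (0.86), Crispld1 (0.86) and Col5a1 (0.84), and among those most like Ptch1 were Dbn1 (0.79) and Cbx6 (0.78). Those most like Hhip were Fbn2 (0.89), Egflam (0.87) and Sorcs3 (0.85). Among members, r was 0.84 between Gli1 and Gli2, 0.74 between Gli1 and Ptch1 and 0.01 between Shh and Hhip. The sums share libraries and depth, so these are descriptions and have no p.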
